A study of Mus musculus with 60 samples.

Results

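The transporters that carry organic anions, organic cations and drugs across cell membranes were followed in the kidneys of mice with and without an induced deletion of Bmal1 (Arntl) in the renal tubule. They were chosen by symbol, as the genes of the Slc22a, Slco, Slc47a, Abcb, Abcc and Abcg families, and 50 of the 68 genes with such symbols reached 1 CPM (a count scaled to the library size) in at least 1 sample, among 15546 retained genes. The families gave 23 Slc22a, 8 Slco, 1 Slc47a, 7 Abcb, 8 Abcc and 3 Abcg genes. The other 18 genes, among them Slco1b2, Abcb11 and Slc47a2, stayed below the minimum and are not described further.

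RNA was sequenced from the kidneys of 60 male C57BL/6J mice, 5 of each genotype at each of 6 Zeitgeber times (ZT) 4 hours apart, with lights on at ZT0 and off at ZT12. The cKOt mice were Bmal1lox/lox/Pax8-rtTA/LC-1 Cre, in which doxycycline (DOX) switches on Cre in the renal tubule through the Pax8 promoter, and the control mice were their Bmal1lox/lox littermates. Both genotypes were 8 weeks old at the start of 2 weeks of DOX in drinking water, and their kidneys were harvested 4 weeks after it ended, so the floxed alleles and the DOX were shared by all 60 mice. By its label the tissue was renal tubule, but the methods describe frozen half-kidneys, which also hold glomeruli, vessels and other cells. Cells that do not use the Pax8 promoter keep BMAL1 in this model, and 5 of 6 mice per group were selected by RNA quality and distance from the other replicates. Counts on genes ranged from 17791420 to 20906706 per mouse (median 18545208.5), and the 50 members together took 0.848% to 1.02% of them in control mice and 0.770% to 0.948% in cKOt mice. The RNA of the targeted gene, Arntl, had a median of 13.2 CPM in control mice (1.92 to 57.0) and of 20.4 CPM in cKOt mice (14.6 to 26.8). These pool all 6 time points, and the means had the reverse order, at 22.1 ± 20.4 and 20.7 ± 2.95 CPM (SD, n = 30). At 2 time points all cKOt mice lay below all control mice. Since a count over the whole gene also covers exons outside the floxed part, it does not check the deletion.

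In the proximal tubule, organic anions and cations are taken up from blood by carriers of the SLC22 family in the basolateral membrane and leave the cell into urine through exporters in the apical membrane, such as MATE1, MRP2 and BCRP. Other members run in the opposite direction and recover solutes from the filtrate, as URAT1 does for urate and OCTN2 for carnitine. The organic anion transporting polypeptides, encoded by Slco genes, carry bile acids, steroid conjugates, thyroid hormones and prostaglandins, and the ABC transporters use ATP to push substrates out of cells or organelles. Since drugs share these carriers with metabolites, the families are known for their part in drug clearance.

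BMAL1 binds E-boxes as a dimer with CLOCK, PAR bZIP factors such as DBP bind D-boxes, and ROR and REV-ERB receptors bind ROR elements. The start regions of the members were therefore searched on both strands for an E-box (CACGTG), a D-box (TTATGTAA) and a ROR element core (TAGGTCA). RefSeq promoters on GRCm38.p6, from 250 bases before to 50 bases after the start, were found for 39 members. An E-box lay in a promoter of 2 of the 39 members (Slc22a4 and 1 of 2 promoters of Abcc4), or 5.13%, against 8.09% of 27025 genes in the table and 11.4% of 11416 retained genes. A D-box lay in 1 of them (Slc22a26, or 2.56%), against 1.11% of all and 0.753% of retained genes, and a ROR element core in 1 (Slco1a1, or 2.56%), against 2.97% and 2.37%. Shown are 4 promoters, of a pair of neighbours that changed unequally, of the largest decrease and of an abundant carrier. They do not stand for the members, as Slc22a4, Slc22a26 and Slco1a1 hold a motif and most members hold none. Among those without one are Slc22a12, the most abundant member per length, and Slc22a8. Capitals mark the searched letters or their reverse complement, and the promoter of Slc22a5 holds none of them. The promoters of Slc22a5 (chr11:53891654-53891953, minus strand) and Slc22a4 (chr11:54028055-54028354, minus strand) belong to neighbours. Slc22a26 (chr19:7802618-7802917, minus strand) had the largest decrease of all members, and Slco1a1 (chr6:141946913-141947212, minus strand) is the Slco transcript with the highest level per length.
Slc22a5: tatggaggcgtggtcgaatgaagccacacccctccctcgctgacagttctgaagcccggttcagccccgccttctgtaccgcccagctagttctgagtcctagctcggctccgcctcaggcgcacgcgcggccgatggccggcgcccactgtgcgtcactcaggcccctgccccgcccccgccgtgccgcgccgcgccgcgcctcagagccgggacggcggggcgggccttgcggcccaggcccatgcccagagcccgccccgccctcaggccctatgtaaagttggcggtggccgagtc
Slc22a4: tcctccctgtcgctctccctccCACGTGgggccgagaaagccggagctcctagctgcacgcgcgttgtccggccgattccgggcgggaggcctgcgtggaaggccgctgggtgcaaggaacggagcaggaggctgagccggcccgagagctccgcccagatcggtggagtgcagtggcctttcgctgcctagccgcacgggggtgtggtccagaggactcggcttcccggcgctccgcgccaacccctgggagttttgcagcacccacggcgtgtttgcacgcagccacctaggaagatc
Slc22a26: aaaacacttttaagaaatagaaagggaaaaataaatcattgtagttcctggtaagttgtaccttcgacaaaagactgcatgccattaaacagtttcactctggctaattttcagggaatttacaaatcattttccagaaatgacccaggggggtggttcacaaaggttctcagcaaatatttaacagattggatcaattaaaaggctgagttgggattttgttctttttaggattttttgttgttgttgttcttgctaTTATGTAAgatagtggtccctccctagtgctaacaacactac
Slco1a1: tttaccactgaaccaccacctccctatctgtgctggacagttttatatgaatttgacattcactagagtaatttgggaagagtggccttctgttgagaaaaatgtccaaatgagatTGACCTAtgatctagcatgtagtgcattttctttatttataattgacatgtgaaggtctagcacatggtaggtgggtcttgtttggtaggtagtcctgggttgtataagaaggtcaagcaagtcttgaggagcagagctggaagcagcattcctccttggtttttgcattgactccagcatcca
In Slc22a4 the E-box began at position -228 from the start, in Slc22a26 the D-box began at position 9 after it, and in Slco1a1 the ROR element core began at position -134.

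Levels between genes were compared per length, as RPKM (CPM divided by the exon length in kilobases). In control mice the mean level ran from 0.0969 RPKM for Slc22a3 to 594 RPKM for Slc22a12, which encodes URAT1. Slc47a1, the apical cation and proton exchanger MATE1, followed at 256 RPKM, then Slc22a6 (OAT1) at 228 and Slco1a1 at 189. The order of Slc22a6 and Slco1a1 depends on the length used. Over all exons they have 3983 and 5276 bases, but their longest coding transcripts have 3983 and 3904 bases. In all, 10 members lay above 100 RPKM, and 11 lay below 1 RPKM. By the SD over 30 mice, Slc22a12 at 118.6 RPKM varied more than Slc22a6 (25.5) or Slc47a1 (18.9), and the means of Slc47a1 and Slc22a6 differed by about 1 such SD. The summed level of the members was 2811 RPKM in control and 2500 RPKM in cKOt mice.

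**Figure D1:**
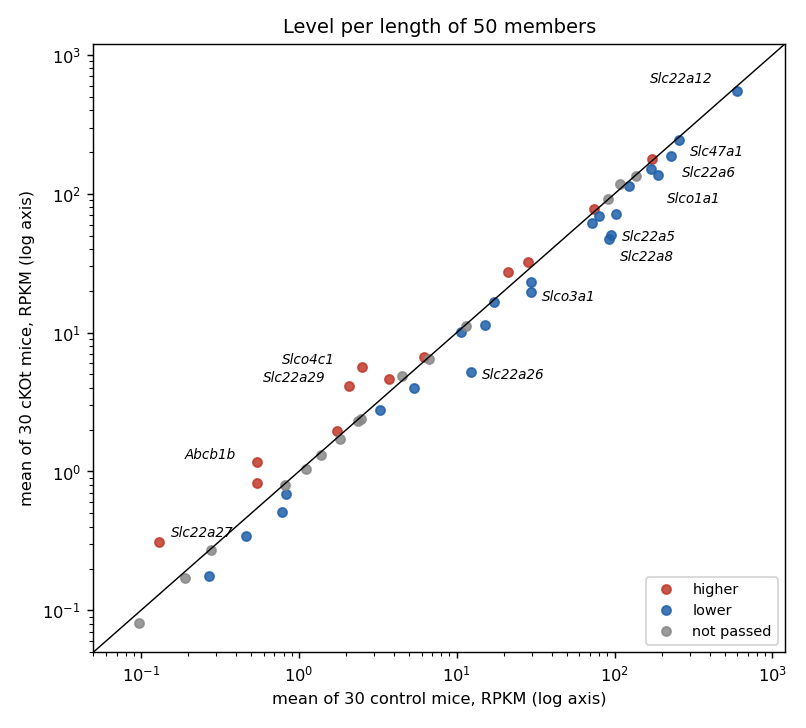
Mean level per length (RPKM) of each of the 50 members in 30 control mice (x, log axis) and 30 cKOt mice (y, log axis), coloured by the result of the test between genotypes. Slc22a5 and Slc22a8 lie below the line of equal levels at 95.4 and 91.8 RPKM in control mice, and Slco4c1, Slc22a29 and Abcb1b lie above it at 2.502, 2.08 and 0.546 RPKM.

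The mean over the 6 time points was compared between genotypes in 1 fit over all retained genes (edgeR quasi-likelihood test with Benjamini-Hochberg adjustment). Of the 50 members, 12 were higher in cKOt mice (24.0%) and 23 were lower (46.0%), where 26.8% of all retained genes were higher and 23.2% were lower. Counts for families and lists below are to be read beside these shares, as no set of genes was tested as a whole. A fold change over 1.2 with an adjusted p below 0.05 was found for 21 members (42.0%, 7 higher and 14 lower), against 16.1% of all genes. Both sets of counts include Slc22a27 and Slc22a14, which reached 1 CPM only in the genotype where they were higher. Their calls are thus not independent of the minimum. The median absolute log2 fold change was 0.20 among members and 0.10 among all genes. The genotypes did not overlap at any of the 6 time points for 4 members (8.0%, against 1.38% of all genes). They were Slc22a5, Slc22a8 and Slco3a1, which were lower, and Abcb1b, which was higher. Over all 30 control and 30 cKOt mice, 1 member did not overlap, Slco3a1 (2.0%, against 0.682% of all genes). Within the 6 library batches, 20 of the 21 members over 1.2-fold kept their direction in each batch, and Slc22a14, at under 1 CPM, was the exception. Of all 35 called members, 28 did so. The members were called in these same mice, so this is no independent support. Batches were unequal, such as batch 4 with 6 cKOt and 3 control mice and batch 6 with 3 and 6.

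**Figure D2:**
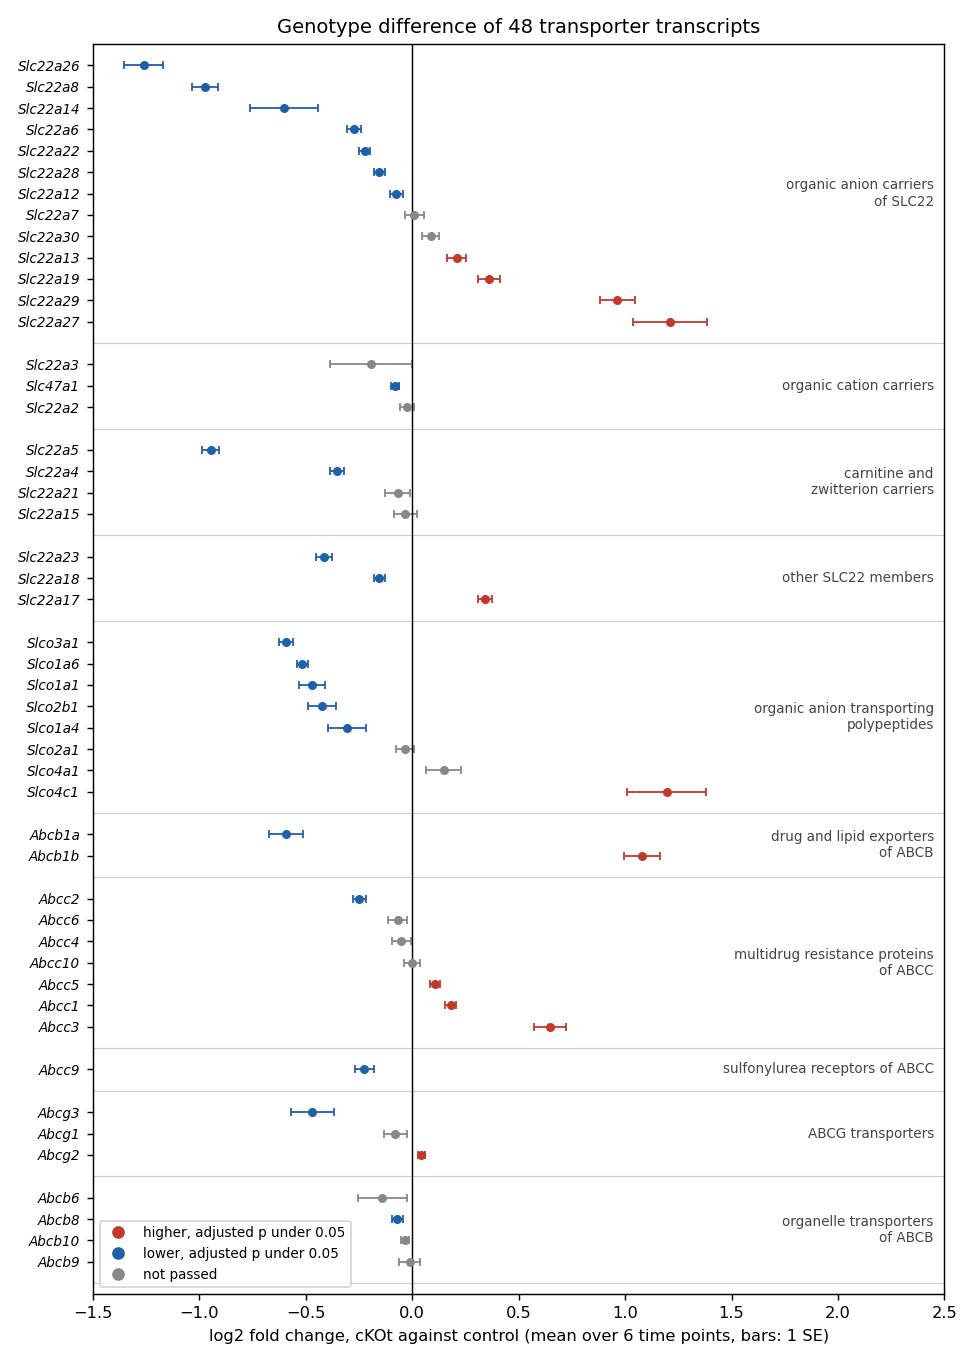
Log2 fold change (x) of 48 of the members (y) between 30 cKOt and 30 control mice as the mean over 6 time points, with bars of 1 standard error, grouped by role. Points left of 0 are lower in cKOt mice, and the organic anion carriers spread from -1.26 for Slc22a26 to 1.21 for Slc22a27, which reached 1 CPM only in cKOt mice.

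In these half-kidneys, fewer cells of a type and less RNA per cell cannot be told apart. Of 5 transcripts that mark the early proximal tubule, 3 were higher and 1 was lower in cKOt mice, and their summed level overlapped between control mice (8182 to 11600 CPM) and cKOt mice (7934 to 12910 CPM). For 4 markers of the straight part, 3 were higher and 1 lower, with sums of 1113 to 1804 and 1037 to 1783 CPM. Most of this sum was Slc7a13, which fell from a mean of 1069 to 841 CPM, while Slc7a12 rose from 0.589 to 5.33 CPM in control mice to 17.4 to 79.6 CPM in cKOt mice without overlap, and Cyp7b1 rose from a mean of 259.8 to 369 CPM. Other lists also overlapped, with sums of 2619 to 5402 and 3215 to 4500 CPM for 3 markers of the thick ascending limb (2 higher, 1 lower), 895 to 1298 and 999 to 1398 CPM for 3 of the distal convoluted tubule (2 higher), and 115 to 209.9 and 112.0 to 210.4 CPM for 4 of the collecting duct (3 higher). The sums were 356 to 438 and 310 to 407 CPM for 5 endothelial markers (all 5 lower), 246 to 359 and 255 to 339 CPM for 3 of podocytes (none passed), 39.7 to 170 and 54.3 to 145 CPM for 4 of pericytes and fibroblasts (3 lower), and 66.7 to 107 and 72.8 to 102 CPM for 4 of leukocytes (3 lower). The 3 markers of tubular injury summed to 2.25 to 7.26 and 2.04 to 7.81 CPM (1 higher). The sums of 3 transcripts that define hepatocytes did not overlap, at 26.8 to 43.6 CPM in control and 7.17 to 17.6 CPM in cKOt mice (2 lower, 1 higher). The part of these shifts in the results for the members was not tested.

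The 13 organic anion carriers of the SLC22 family had a summed level of 1381 RPKM in control and 1249 RPKM in cKOt mice. In this group 4 were higher, 7 were lower and 2 did not pass (all genes: 26.8% higher, 23.2% lower). Among the basolateral ones, Slc22a8 fell by 0.97 on the log2 scale and Slc22a6 fell by 0.27. Slc22a8 encodes OAT3, which takes up conjugated steroids, antibiotics and other anions from blood. Its level ran from 259 to 487 CPM in control mice (median 351) and from 126 to 283 CPM in cKOt mice (median 180), for a log2 fold change of -0.97 ± 0.06 (SE, adjusted p = 5.0e-20, edgeR). The ranges overlapped over the 60 mice but at no single time point, where the log2 fold change ran from -1.21 at ZT20 to -0.69 at ZT8. At ZT20 the control mice had 304, 316, 369, 384 and 440 CPM, and the cKOt mice had 135, 150, 158, 165 and 172 CPM. All 5 cKOt mice thus lay well below the lowest control mouse. Slc22a6 encodes OAT1, the main carrier of para-aminohippurate. It ran from 720 to 1213 CPM (median 894) in control and from 485 to 1007 CPM (median 735) in cKOt mice, for a log2 fold change of -0.27 ± 0.03 (adjusted p = 1.1e-10, edgeR), and the ranges overlapped. At ZT0 its difference was -0.05 ± 0.08, and at ZT16 it was -0.41 ± 0.08. The variation over the time points did not pass for Slc22a6 (adjusted p = 0.27, edgeR) or Slc22a8 (adjusted p = 0.58, edgeR). Slc22a7 (OAT2), a carrier of nucleotides and prostaglandins, did not pass the test, at 121 to 236 CPM in control and 125 to 235 CPM in cKOt mice and a log2 fold change of 0.01 ± 0.05.

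Slc22a22, a carrier of prostaglandins, had 149 to 267 CPM in control and 125 to 225 CPM in cKOt mice, and decreased by 0.22 ± 0.03 on the log2 scale (adjusted p = 2.3e-10, edgeR).

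The apical urate carriers among the members, Slc22a12 and Slc22a13, differed by less than 1.2-fold. Slc22a12 had 794 to 2112 CPM in control (median 1345) and 566 to 1623 CPM in cKOt mice (median 1297), for a log2 fold change of -0.07 ± 0.03 (adjusted p = 0.042, edgeR). Its ranges overlapped widely, and the adjusted p ran from 0.018 to 0.28 over the 14 other settings of the analysis. Slc22a13 (OAT10), which exchanges urate and nicotinate, was higher by 0.21 ± 0.04 (adjusted p = 7.3e-05, edgeR), with 27.9 to 78.9 CPM in control and 42.0 to 81.7 CPM in cKOt mice, and shared 21.8% of its stretches of 100 bases with the pseudogene Slc22a13b-ps. Slc22a13 lies within the span of Slc22a14 on the same strand of chromosome 9. No stretch of 100 bases of the longest coding transcript of Slc22a14 was found in other genes. Slc22a14 had 2 to 20 counts per mouse and decreased by 0.60 ± 0.16 on the log2 scale (adjusted p = 0.0012, edgeR). It exceeded 1 CPM only in control mice, and so met the minimum only through them. Of 4 urate transporters outside the families, 2 were higher and 2 lower. The largest of these on an abundant transcript was Slc17a1, a phosphate and urate carrier, which had a mean of 923 ± 103 (SD, n = 30) CPM for control and 693 ± 70.0 (SD, n = 30) CPM for cKOt mice.

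The organic anion carriers that lie in an array on chromosome 19 moved in both directions. From Slc22a19 to Slc22a6 the array spans 8 members (chr19:7673061-8628299, GRCm38), of which 3 were higher, 4 were lower and 1 did not pass (all genes: 26.8% higher, 23.2% lower). Those lower include Slc22a8 and Slc22a6, described above. Slc22a26 ran from 23.2 to 56.7 CPM in control (median 34.0) and from 8.79 to 33.1 CPM in cKOt mice (median 14.2), for a log2 fold change of -1.26 ± 0.09 (adjusted p = 2.1e-17, edgeR). At 5 of 6 time points its genotypes did not overlap. Slc22a29 ran from 3.00 to 9.18 CPM (median 4.70) in control and from 5.64 to 17.1 CPM (median 9.71) in cKOt mice, higher by 0.96 ± 0.08 (adjusted p = 4.9e-15, edgeR), and its genotypes did not overlap at 4 time points. Slc22a19 (OAT5), a carrier of sulfate conjugates, was higher by 0.36 ± 0.05 (adjusted p = 6.4e-08, edgeR), with 79.1 to 163 CPM in control and 105 to 235 CPM in cKOt mice. Slc22a27 was higher by 1.21 ± 0.17, but had at most 24 counts in a mouse and 0.803 CPM in the highest control mouse, and so met the minimum only through cKOt mice. Between these lay Slc22a28, which decreased by 0.15, and Slc22a30, which did not pass (0.09 ± 0.04, adjusted p = 0.060, edgeR).

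Reads could be shared or lost among these close relatives. Of all stretches of 100 bases in its longest coding transcript, 37.0% of Slc22a28 and 24.3% of Slc22a30 were found letter for letter in other genes of the array. The share was 8.43% for Slc22a29, 7.65% for Slc22a27 and 0.62% for Slc22a26, and Slc22a6 and Slc22a8 shared none. Reads that align to several places were not assigned by the authors' counting, and their share was 26.9% ± 0.835 (SD, n = 30) in control and 25.4% ± 0.679 (SD, n = 30) in cKOt mice. The part of this shift in the results was not tested, and the levels of sharing genes are uncertain.

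**Figure D3:**
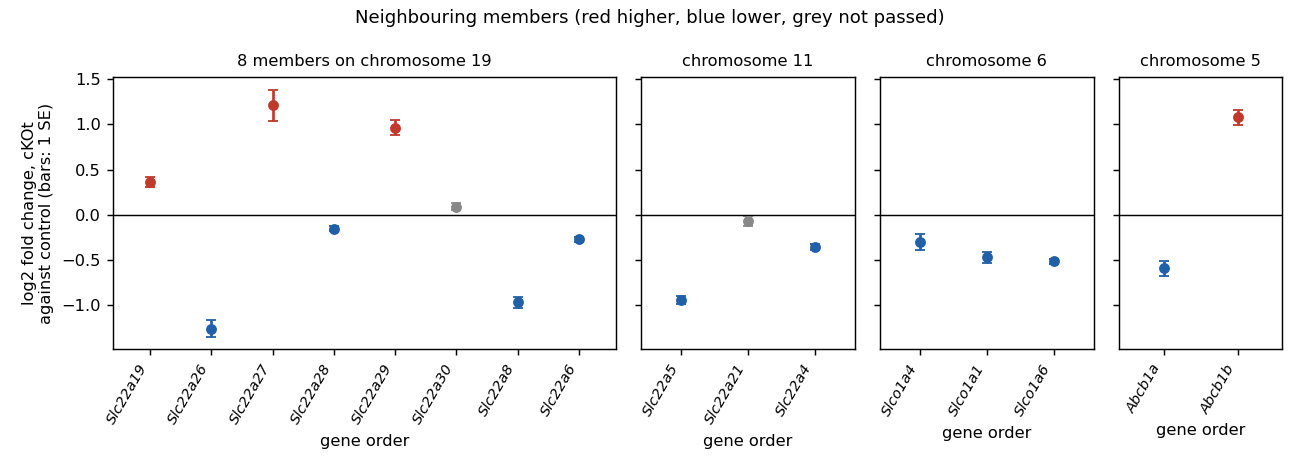
Log2 fold change between cKOt and control mice (y, mean over 6 time points, bars of 1 standard error) for members that lie next to each other, in their order along chromosomes 19, 11, 6 and 5 (x). On chromosome 19, Slc22a26 at -1.26 and Slc22a29 at 0.96 differ in direction (Slc22a27 at 1.21 reached 1 CPM only in cKOt mice), and on chromosome 5, Abcb1a at -0.59 lies beside Abcb1b at 1.08.

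Among the organic cation carriers, Slc22a2 and Slc47a1 showed small differences at high levels. Slc22a2 (OCT2), a basolateral uptake carrier, ran from 282 to 400.4 CPM and from 286 to 420.3 CPM, and its difference of -0.02 ± 0.03 did not pass. Slc47a1 ran from 739 to 1042 CPM (median 866) in control and from 688 to 907 CPM (median 822) in cKOt mice, and decreased by 0.08 ± 0.02 on the log2 scale (adjusted p = 3.3e-04, edgeR). In both, the ranges of the genotypes overlapped over most of their length. Slc22a3 (OCT3) was measured with 1 to 20 counts per mouse and did not pass.

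The carnitine carrier Slc22a5 had the lowest adjusted p of all members. Slc22a5 encodes OCTN2, which recovers filtered carnitine together with sodium. It ran from 235 to 379 CPM in control mice (median 298) and from 108.0 to 248 CPM in cKOt mice (median 142.0), for a log2 fold change of -0.95 ± 0.04 (adjusted p = 4.4e-27, edgeR). At ZT8 the control mice had 295, 301, 322, 333 and 338 CPM, against 170, 173, 195, 199 and 206 CPM in the cKOt mice. At ZT16 they had 257, 281, 301, 311 and 321 CPM, against 124.0, 124.1, 124.1, 124.2 and 137 CPM. All 30 cKOt mice lay below the lowest control mouse of their time point. The log2 fold change was -0.74 ± 0.10 at ZT8 and -1.21 ± 0.10 at ZT16, and its variation over the time points did not pass (adjusted p = 0.0998, edgeR), though it did without replicate 1 (adjusted p = 0.030). Within the 6 batches the difference ran from -1.12 to -0.66.

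The neighbours of Slc22a5 on chromosome 11 moved less. Slc22a4 (OCTN1), a carrier of ergothioneine, ran from 54.6 to 95.5 CPM in control (median 74.0) and from 45.3 to 77.8 CPM in cKOt mice (median 59.1), and decreased by 0.35 ± 0.03 on the log2 scale (adjusted p = 2.3e-13, edgeR). Its genotypes did not overlap at 3 time points. Slc22a21 (OCTN3), which lies between them, had 3.20 to 7.11 and 2.99 to 6.68 CPM and did not pass (-0.07 ± 0.06, adjusted p = 0.34, edgeR). It shared 12.1% of its stretches of 100 bases with Slc22a5, which shared 13.7% with it. Slc22a15, a carrier of zwitterions, had 2.46 to 4.75 and 2.84 to 5.91 CPM and did not pass (-0.03 ± 0.05). Of 3 other genes of carnitine synthesis and exit, 1 was higher and 2 were lower. Aldh9a1, an enzyme of carnitine synthesis, had 592 ± 34.3 (SD, n = 30) CPM for control and 379 ± 22.6 (SD, n = 30) CPM for cKOt mice, and Slc16a9, a carrier through which carnitine can leave cells, had 294 ± 42.6 and 235 ± 20.0 CPM (SD, n = 30). Bbox1, the last enzyme of synthesis, had 1.3 ± 0.752 and 2.14 ± 1.27 CPM (SD, n = 30).

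**Figure D4:**
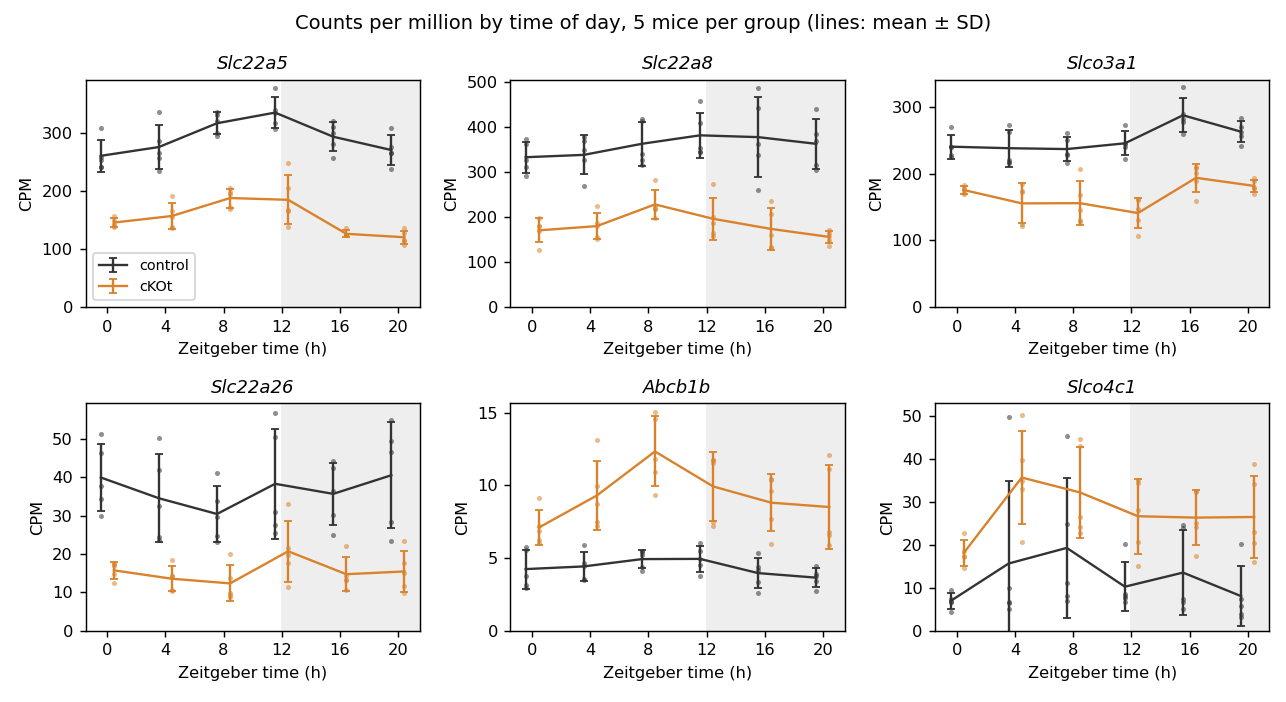
CPM (y) of 6 members in each mouse (points) at 6 Zeitgeber times (x, hours, with the dark phase shaded), with lines and bars for the mean ± SD of 5 mice. Slc22a5, Slc22a8 and Slco3a1 were lower in cKOt mice at each time point without overlap and Abcb1b was higher, while 7 control mice reached the range of cKOt mice for Slco4c1.

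Of the 3 members of SLC22 with other roles, 2 were lower and 1 was higher. Slc22a17, a receptor for lipocalin-2, was higher by 0.34 ± 0.03 (adjusted p = 7.5e-14, edgeR), with 12.0 to 27.0 CPM in control and 10.9 to 31.4 CPM in cKOt mice. The orphan member Slc22a23 decreased by 0.41 and Slc22a18 decreased by 0.15 on the log2 scale.

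Of the 8 organic anion transporting polypeptides, 5 were lower, 1 was higher and 2 did not pass (all genes: 23.2% lower, 26.8% higher). Slco3a1, a carrier of prostaglandins and thyroid hormone, ran from 215 to 329 CPM in control (median 248) and from 107.0 to 210.0 CPM in cKOt mice (median 172), for a log2 fold change of -0.59 ± 0.03 (adjusted p = 3.0e-23, edgeR). It was the member without overlap over all 60 mice, with a gap from 210.0 CPM in the highest cKOt mouse to 215 CPM in the lowest control mouse. Slco1a6 ran from 306 to 569 CPM (median 386) and from 226 to 380.3 CPM (median 269), and decreased by 0.52 ± 0.03 on the log2 scale (adjusted p = 2.9e-24, edgeR). Slco1a1, an apical carrier of steroid conjugates, ran from 607 to 1471 CPM (median 975) in control and from 458 to 1025 CPM (median 714) in cKOt mice, and decreased by 0.47 ± 0.06 on the log2 scale (adjusted p = 7.2e-09, edgeR). The genotypes overlapped at 1 time point for Slco1a6 and at 4 for Slco1a1. These 2 and Slco1a4, which decreased by 0.31, lie together on chromosome 6, where Slco1a1, Slco1a4 and Slco1a6 shared 0.87% to 2.14% of their stretches with other genes. Slco2b1 decreased by 0.42 on the log2 scale, and Slco2a1, the prostaglandin transporter, had 33.7 ± 5.78 and 32.4 ± 4.84 CPM (SD, n = 30) and did not pass.

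Slco4c1, a basolateral carrier of digoxin, thyroid hormone and uremic toxins, was the exception. It was higher by 1.19 ± 0.19 on the log2 scale (adjusted p = 3.0e-07, edgeR), with 14.6 to 50.2 CPM in cKOt mice (median 24.6) and 3.10 to 49.7 CPM in control mice (median 7.39). In 23 control mice it had 3.10 to 11.1 CPM, below all 30 cKOt mice, and in the other 7 it had 20.2 to 49.7 CPM, within their range. At ZT4 the control mice had 5.10, 6.52, 6.80, 10.0 and 49.7 CPM, against 20.6, 32.9, 34.8, 39.7 and 50.2 CPM in cKOt mice. The genotypes were fully apart at 1 of 6 time points. Within the 6 batches the difference ran from 0.92 to 2.02.

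Abcb1a and Abcb1b encode the 2 mouse forms of P-glycoprotein, which exports many drugs, and they moved in opposite directions at low levels. Abcb1a ran from 2.46 to 6.58 CPM in control (median 3.96) and from 1.46 to 4.76 CPM in cKOt mice (median 2.58), and decreased by 0.59 ± 0.08 on the log2 scale (adjusted p = 7.7e-09, edgeR). Abcb1b ran from 2.58 to 6.03 CPM (median 4.39) in control and from 5.93 to 15.0 CPM (median 9.24) in cKOt mice, higher by 1.08 ± 0.08 (adjusted p = 3.4e-16, edgeR). Each of the 30 cKOt mice lay above the highest control mouse of its time point for Abcb1b, and 23 of 30 lay below the lowest for Abcb1a. In control mice their mean levels were near each other, at 4.26 CPM for Abcb1a and 4.36 CPM for Abcb1b. In cKOt mice Abcb1a was below Abcb1b, at 2.82 against 9.33 CPM. Per exon length the levels were 0.778 and 0.546 RPKM in control and 0.515 and 1.17 RPKM in cKOt mice. The order in control mice depends on the length used. Over all exons the 2 genes have 5480 and 7990 bases, but their longest coding transcripts have 4997 and 4306 bases. They are neighbours on chromosome 5 and shared 7.72% and 8.72% of their stretches of 100 bases, with each other and, for Abcb1a, with Abcb4.

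Of the 7 multidrug resistance proteins of the ABCC family, 3 were higher, 1 was lower and 3 did not pass (all genes: 26.8% higher, 23.2% lower). Abcc2 (MRP2), the apical exporter of glutathione and glucuronide conjugates, ran from 515 to 742 CPM in control (median 606) and from 435 to 631 CPM in cKOt mice (median 530), and decreased by 0.25 ± 0.03 on the log2 scale (adjusted p = 1.4e-09, edgeR). Its genotypes did not overlap at 2 time points. Abcc4 (MRP4), which exports cyclic nucleotides and urate, did not pass (-0.05 ± 0.05), at 32.2 to 54.9 and 27.3 to 55.3 CPM. Abcc3 (MRP3), a basolateral exporter of conjugates, was higher by 0.65 ± 0.08 (adjusted p = 2.6e-10, edgeR), with 1.498 to 4.69 CPM in control (median 3.11) and 2.64 to 9.03 CPM in cKOt mice (median 4.27). Abcc1 (MRP1), an exporter of leukotrienes and glutathione conjugates, was higher by 0.18 ± 0.03 (adjusted p = 8.6e-08, edgeR), at 16.9 to 32.0 and 23.6 to 37.5 CPM. Abcc6 (4.46 to 15.7 and 5.03 to 19.4 CPM) and Abcc10 (16.1 ± 3.17 and 15.8 ± 3.71 CPM, SD, n = 30) did not pass. Abcc5 was higher by 0.11, and Abcc9, a subunit of potassium channels in muscle and vessels, decreased by 0.22 on the log2 scale.

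Among ABCG members, Abcg2 encodes BCRP, an apical exporter of urate and sulfate conjugates. Its mean was higher by 0.04 ± 0.02 (adjusted p = 0.026, edgeR), with 469 to 746 CPM in control and 497 to 812 CPM in cKOt mice. This call held in 4 of the 14 other settings. Abcg3 decreased by 0.47 ± 0.10 (adjusted p = 9.7e-05, edgeR), at 0.872 to 2.53 and 0.434 to 2.07 CPM and with 8 to 45 counts per mouse. Abcg1, an exporter of cholesterol, had 5.10 to 13.0 and 4.39 to 11.7 CPM and did not pass (-0.08 ± 0.05). Among ABCB members of mitochondria and lysosomes, Abcb8 decreased by 0.07 and 3 did not pass, namely Abcb10 (49.2 ± 2.04 and 48.0 ± 3.12 CPM, SD, n = 30), Abcb9 (4.60 ± 1.07 and 4.48 ± 1.19 CPM, SD, n = 30) and Abcb6 (1.003 ± 0.320 and 0.913 ± 0.244 CPM, SD, n = 30). For Abcb6, 86.6% of the stretches also belong to an overlapping gene model, Gm29253, so that few of its reads could be assigned.

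Rhythms over 24 hours were described with 5 models, weighed by the Bayesian information criterion (BIC) and assigned at a weight of at least 0.65, on values corrected by 2 factors of unwanted variation (RUVs). Amplitudes are log2 differences between peak and trough. A rhythm was assigned to 21 members in control mice (42.0%, against 33.9% of all genes) and to 21 in cKOt mice (42.0%, against 31.0%). Without RUVs factors the shares were near those of all genes, with 12 members in control mice (24.0%, against 24.5%) and 11 in cKOt mice (22.0%, against 21.6%). Rhythms were unaltered (model 4) in 13 members (26.0%, against 25.2%) and altered (model 5) in 4 (8.0%, against 2.37%). They were found only in control mice (model 2) for 4 members (8.0%, against 6.25%) and only in cKOt mice (model 3) for 4 (8.0%, against 3.42%). Of the 25 rhythmic members, 4 kept their model in all 12 other settings, namely Abcb1a, Abcg1, Slc22a21 and Slco1a6.

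The difference between genotypes varied over the time points for 1 member, Abcg2 (2.0%, against 3.08% of all genes). At ZT12 Abcg2 had 544, 581, 605, 607 and 727 CPM in control mice and 625, 686, 689, 750 and 771 CPM in cKOt mice. At ZT20 it had 595, 601, 617, 669 and 746 CPM in control mice and 559, 573, 574, 624 and 651 CPM in cKOt mice. The cKOt mice were thus mostly higher at ZT12 and mostly lower at ZT20, with overlap at both. The log2 fold change was 0.17 ± 0.04 at ZT12 and -0.08 ± 0.04 at ZT20 (variation, adjusted p = 0.0064, edgeR). Its fitted peak lay at ZT 0.94 ± 0.72 h (SE) in control and at ZT 7.4 ± 0.77 h in cKOt mice, with amplitudes of 0.18 ± 0.03 and 0.17 ± 0.03 (model 5). The variation did not pass without RUVs factors, with the batch in their place, or without replicate 2 or 5.

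Of the 13 unaltered rhythms, 10 peaked from ZT6 to ZT12, in the later part of the light phase. This was 76.9%, against 41.9% of the 3924 genes with an unaltered rhythm. The share depends on the correction. When no RUVs factors were removed, Abcb8, Abcc10, Slc22a17, Slco1a4 and Slco2a1, all in this window, lost the unaltered model. Abcb10, Abcc4 and Abcg1, outside the window, kept it. Abcb1a and Abcb1b, which changed in opposite directions, both kept a rhythm with a shared peak at ZT 8.7 and ZT 9.0 and amplitudes of 0.60 and 0.50. Slc22a4 and Slc22a21 peaked at ZT 9.5 and ZT 7.8, with amplitudes of 0.41 and 0.57. Abcg1 peaked in the dark, at ZT 16.6, with an amplitude of 0.63. Abcc4 peaked at ZT 13.2 with an amplitude of 0.29.

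Slc22a5 kept a rhythm in both genotypes but was assigned to model 5, with a peak at ZT 11.1 ± 0.90 h and an amplitude of 0.36 ± 0.08 in control, and at ZT 8.1 ± 0.51 h and 0.63 ± 0.08 in cKOt mice. This model was kept in 11 of 12 settings, and without replicate 4 no model reached the weight. Slco3a1 was also assigned to model 5, with peaks at ZT 16.6 and ZT 20.0, but kept it in 5 of 12 settings. In Slc22a8 and Slc22a6 a rhythm was assigned only in cKOt mice (model 3). The amplitude of Slc22a8 was 0.20 ± 0.12 in control and 0.46 ± 0.12 in cKOt mice, and that of Slc22a6 was 0.06 ± 0.06 and 0.30 ± 0.06. Each kept this model in 10 of 12 settings. Without RUVs factors Slc22a8 kept it, but no model reached the weight for Slc22a6 (amplitudes of 0.10 and 0.28). The errors of the Slc22a8 amplitudes are large beside their difference, which was not tested. Slc47a1 was assigned to the same model with amplitudes of 0.06 and 0.11, in 5 of 12 settings.

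Among the assigned rhythms the largest amplitude was that of Slco4a1, a carrier of thyroid hormone and prostaglandin, in control mice, at 0.82 ± 0.17 with a peak at ZT 16.5. In cKOt mice it was 0.18 ± 0.17 (model 2), and its mean difference of 0.15 ± 0.08 did not pass. Before the RUVs correction, the control mice had 21.3, 28.5, 30.5, 32.0 and 34.6 CPM at ZT16 and 12.4, 14.4, 17.5, 21.7 and 22.0 CPM at ZT8. The cKOt mice had 19.1, 23.2, 27.5, 31.7 and 43.3 CPM at ZT16 and 13.7, 19.5, 22.8, 26.2 and 27.3 CPM at ZT8. Both genotypes thus had their highest mean at ZT16 before the correction, with overlapping mice, and without RUVs factors no model reached the weight (amplitudes of 0.62 and 0.29). Slco1a6 was also assigned to model 2, with 0.22 ± 0.05 and 0.08 ± 0.05, and stayed there in all 12 other settings. Slc22a12 had amplitudes of 0.31 ± 0.06 and 0.11 ± 0.06 (model 2, in 8 of 12 settings), and Abcc9 had 0.37 and 0.11.

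**Figure D5:**
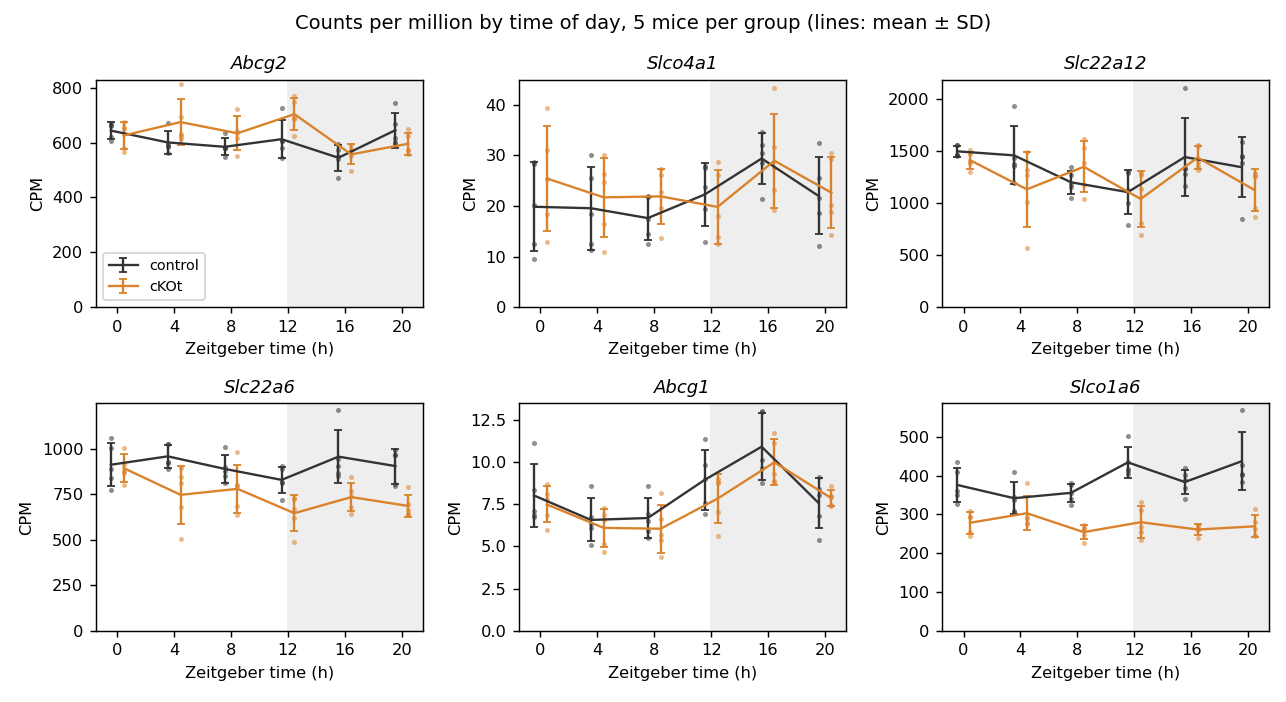
CPM (y), before correction for unwanted variation, of 6 members in each mouse (points) at 6 Zeitgeber times (x, hours, with the dark phase shaded), with lines and bars for the mean ± SD of 5 mice. For Abcg2 the line of cKOt mice crosses that of control mice, from 704 against 613 CPM at ZT12 to 596 against 646 CPM at ZT20.

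Genes that work with the transporters were read from lists made for this purpose. Of 7 genes that drive or anchor carriers, such as the sodium pump and PDZ scaffold proteins, 6 were lower and 1 did not pass. Pdzk1, a scaffold of apical carriers, had 1421 ± 110 (SD, n = 30) CPM for control and 1145 ± 111 (SD, n = 30) CPM for cKOt mice. Slc13a3, which supplies the dicarboxylates that OAT1 and OAT3 exchange, had 657 ± 84.9 and 412 ± 66.0 CPM (SD, n = 30). Of 12 transcription factors that are known to act on transporter genes, 3 were higher, 7 were lower and 2 did not pass. Nr1i2, which encodes the drug sensor PXR, was higher, at 4.54 ± 1.01 against 7.08 ± 1.31 CPM (SD, n = 30), and Hnf4a was lower, at 915 ± 86.1 against 846 ± 82.7 CPM (SD, n = 30). Of 6 kidney transcripts that respond to androgen, 5 were lower and 1 was higher. Among them, Cyp4a12a had 186 ± 69.2 (SD, n = 30) CPM for control and 32.0 ± 19.3 (SD, n = 30) CPM for cKOt mice, and Slc7a13 had 1069 ± 119 and 841 ± 110.0 CPM (SD, n = 30). No relation between these genes and the members was tested.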

How the data were processed

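The study deposited 1 table per mouse with whole-number counts of reads per Ensembl gene, which the authors made from stranded poly(A) libraries. The submitters' processing notes name bcl2fastq, cutadapt (version 1.8), STAR (version 2.5.3a), HTSeq (version 0.9.1), and GRCm38. The release of the annotation and the strand setting are not given in the sources used here. The deposited counts were neither normalized nor filtered. Lines of the counting program that belong to no gene were left out (0.953% to 1.27% of reads ambiguous, means in control and cKOt mice of 8.27% and 9.19% outside genes and of 26.9% and 25.4% not unique). Symbols, positions and exon lengths were taken from GENCODE mouse release 21.

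Genotype, time point and replicate number came from the labels. A gene was retained where any sample reached 1 CPM. Differences were tested on the counts in edgeR (version 4.0.16, R version 4.3.3), with TMM library sizes, 12 groups, 2 RUVs factors and the quasi-likelihood F test, as the mean over 6 time points and as variation between them, adjusted by Benjamini and Hochberg over 15546 genes at 0.05. The procedure was also run on simulated counts with a single dispersion and with rhythms larger than any assigned to the members. That run does not check small rhythms, and no result here rests on it. Rhythms were weighed by BIC as in dryR, on logCPM with a prior count of 2 after removal of the RUVs factors. Within batches, differences of mean log2(CPM + 0.5) were taken. The batch was read from a supplementary sample sheet. Controls were littermates of cKOt mice, but the labels tie no mouse to a litter.

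Alternatives were DESeq2 size factors, the DESeq2 test (version 1.42.0), limma-trend (version 3.58.1), filterByExpr, no filter, 1 RUVs factor (rhythms) or none, the batch in their place, the replicate block, other BIC weights, a required fold change of 1.2, and leaving out replicates or a sample marked for removal. The members and lists were chosen with earlier results of these data known. Members named with values are known kidney drug carriers, carnitine and zwitterion carriers, the 8 largest increases and decreases with at least 1 CPM, the 5 highest levels, the largest amplitudes, and any with a called variation. Other members are given briefly, chosen after their values were seen, and 2 members are not reported here by name. Precision is limited by counting below about 1 CPM. The 120 replicate pairs held no identical libraries, and each pair differed by at least 5.61 times Poisson noise in its squared differences.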

Additional observations from a re-analysis of the deposited data

Results flagged for a closer look

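Mice that lie far from the others of their group were looked for in 144 groups of 5 mice, those of the 12 members plotted by time point. Of these, 10 groups held one (chance gives about 1 in 20 for independent groups of random mice). The groups reuse the same mice, which were selected partly by distance from the other replicates. The rate is thus only a rough guide. For Slco4c1 in control mice, the highest mouse had 49.7 CPM at ZT4 against 10.0 CPM for the next, 20.3 against 8.55 CPM at ZT12, and 20.2 against 7.39 CPM at ZT20. For Slc22a5, the highest control mouse at ZT0 had 309.7 CPM against 259.9 CPM for the next, and the highest cKOt mouse at ZT16 had 136.9 CPM against 124.2 CPM. In control mice, Slc22a6 reached 1213 CPM at ZT16 against 946 CPM for the next mouse. Slc22a12 reached 2112 against 1341 CPM at ZT16, and its lowest mouse at ZT20 had 851.7 against 1385 CPM. For Slco1a6, the highest control mouse at ZT20 had 568.9 against 426 CPM, and the highest cKOt mouse at ZT4 had 380.3 against 294 CPM.

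The genotype difference of Abcg2 varied between time points (adjusted p = 0.00635, edgeR), from 0.17 at ZT12 to -0.08 at ZT20 on the log2 scale. Over the 14 other settings this adjusted p ran from 0.00099 to 0.37.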

How the results depend on the processing

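Of the 35 members called in the mean difference, 30 kept call and direction in all 14 other settings, and 5 lost the call in at least 1, among them Abcg2, Abcb8 and Slc22a12. Of the 15 that did not pass, 6 passed in at least 1 (Abcg1, Abcc4, Abcb10, Slc22a30, Slco4a1 and Slc22a3). A required fold change over 1.2 left 7 members higher and 14 lower. In at least 1 setting 7 members changed sign, none of them called (0 of 7). They were Abcc10, Abcb9, Slco2a1 and Slc22a3, and, with their values, Slc22a7 without RUVs factors (-0.0018) and without replicates 2 (-0.0026), 3 (-0.0050) and 5 (-0.0050), Slc22a2 without replicate 4 (0.0017), and Slc22a15 without replicate 3 (0.0055). Without one replicate number these ranged from -0.0050 to 0.034 for Slc22a7, -0.036 to 0.0017 for Slc22a2 and -0.071 to 0.0055 for Slc22a15. The variation over time points was called for 0 members with no RUVs factors, for 0 with the batch as covariate instead, and for 0 to 2 when 1 replicate number was left out, with 2 without replicate 1 and 0 without replicate 2 or 5. Of all members, 8 (16.0%, against 14.8% of all genes) had an unadjusted p under 0.05 for it in edgeR, and DESeq2 and limma-trend each called 1. Rhythms were assigned to 12 members in control and 11 in cKOt mice without RUVs factors, and to 12 and 12 at a BIC weight of at least 0.8 (24.0% and 24.0%, against 24.8% and 22.6% of all genes). The causes were not tested. Without one replicate number, the members higher in cKOt mice numbered 11 to 13, those lower 21 to 24, and those with a rhythm 16 to 18 in control and 15 to 16 in cKOt mice.

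Replicate numbers do not pair the mice. Residuals of samples with the same number in different groups had a mean correlation of 0.0043 over 330 pairs, against -0.0010 over 1320 pairs with different numbers. With the replicate block, 12 members were higher and 23 lower, 1 varied over time points, and 21 had a rhythm in each genotype, with no call changed. Depth limits members under 1 CPM, such as Slc22a3 with 1 to 20 counts.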
